A study of Mus musculus with 4 samples.

Results

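Collagens, laminins, matrix metalloproteinases and their tissue inhibitors were examined in mouse liver, with 7 further genes of the matrix or of the cells that make it. The genes were all those on the array whose symbol begins as a collagen chain (Col), laminin chain (Lam), metalloproteinase (Mmp) or tissue inhibitor of metalloproteinases (Timp), plus Fn1, Sparc, Lum, Acta2, Des, Pdgfra and Pdgfrb. This rule used names and no measured value, but it was chosen with earlier results of these data known. It found 89 probe sets of 63 genes, out of 8251 genes that had a probe set annotated to a single gene. Of the 63 genes, 25 were bright enough to be kept, as were 4829 of all genes.

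The livers came from female mice of 8 months of age in the fed state, and all 4 groups shared sex, age, tissue and a diet period of 6 months. HSL-null mice carry a general knockout of the gene Lipe, which encodes hormone-sensitive lipase, an enzyme that hydrolyses stored acylglycerols and cholesteryl esters. The groups were wild type on a normal diet (ND, 11% of energy from fat), wild type on a high-fat diet (FD, 58% of energy from fat), HSL-null on ND and HSL-null on FD. How the knockout was made and the strain background are not given in the sources used here. RNA was extracted from a pool of 6 livers in 3 of the groups and from a pool of 4 livers in HSL-null on FD. Each pool was measured on 1 Affymetrix MG_U74Av2 oligonucleotide array, so no difference has a replicate check, no test was made, and "higher" and "lower" describe these 4 pools only. A pool gives the average of its livers, and the animals' own spread is not measured.

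The extracellular matrix of the liver lies mainly in the portal tracts, around the central veins and, as a thin layer, in the space between hepatocytes and the sinusoidal endothelium. Fibril-forming collagens give it tensile strength, collagen IV and laminins form basement membranes, and collagen VI forms beaded filaments beside the cells. Hepatic stellate cells and portal fibroblasts are the main makers of fibril-forming collagen, and their activation is the central event of liver fibrosis. Metalloproteinases cut matrix proteins, and tissue inhibitors of metalloproteinases (TIMPs) block them.

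Signals are MAS5 values, linear intensities with a 2% trimmed mean of 100.085 to 100.094 on every array as deposited. Signals under 6.1, the 25th percentile of all values, were raised to that floor, and genes were kept at a mean signal of 26.94 or more. Each gene was read by its brightest probe set, and differences are log2 ratios, in which 1 is a 2-fold difference. For 687 genes that 2 or more kept probe sets read, the ratios of the brightest pair differed with an SD of 0.298 per ratio. That SD was 0.36 (274 genes) in the signal range of most of the genes described here, and neither value holds the error shared on an array or the variation between animals. Lipe itself read 28.0 (ND) and 34.0 (FD) in wild-type liver and 11.9 (ND) and 15.9 (FD) in HSL-null liver, lower in both HSL-null pools as their labels state. All 12 hepatocyte markers were kept and above the floor, which matches the labelled tissue. Each genotype was hybridised with its own lot of solutions, and these effects cannot be told apart.

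The kept matrix genes covered a wide range of signals. The lowest mean over the 4 arrays was 28.0 and the highest was 826, that of Col18a1. No kept member touched the floor on any array. Of 25 genes, 10 (40.0%) had their highest signal in HSL-null on FD, where 28.97% of all kept genes did. The lowest signal lay in wild type on FD for 12 genes (48.0%, against 36.05% of all genes) and in HSL-null on ND for 9 genes (36.0%, against 19.42%). These counts use the signals as deposited and were not repeated under another scaling. Over all probe sets other than controls, the median signal was 27.8 (ND) and 25.2 (FD) in wild type and 25.4 (ND) and 28.3 (FD) in HSL-null. Different genes were read by different probe sets, so levels are compared between arrays and never between genes. Signals listed 4 at a time stand in the order wild type ND, wild type FD, HSL-null ND and HSL-null FD.

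**Figure D1:**
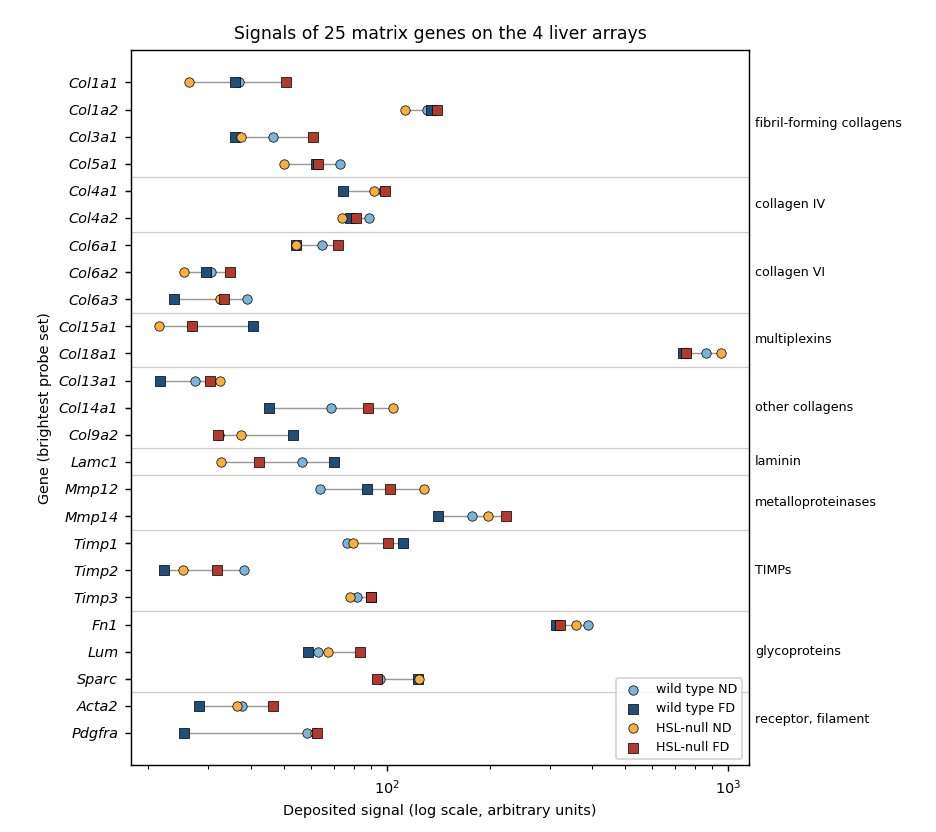
Signal of each of the 25 kept matrix genes on the 4 arrays (log axis, arbitrary units), ordered by role, with a line from the lowest to the highest array. For 10 of 25 genes (40.0%, against 28.97% of all kept genes) the highest point is HSL-null on FD. For 12 (48.0%, against 36.05%) the lowest is wild type on FD.

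Type I and type III collagen, the main fibrils of the liver matrix, had their highest signals in the HSL-null FD pool. Col1a1, the alpha 1 chain of type I collagen, read 36.8 (ND) and 35.8 (FD) in wild-type liver and 26.3 (ND) and 50.8 (FD) in HSL-null liver. Both wild-type pools lay together, with HSL-null on ND below them and HSL-null on FD above them. The log2 genotype ratio, HSL-null over wild type, was -0.48 on ND and 0.50 on FD, and FD was 1.93-fold over ND in HSL-null liver. A dimmer probe set of Col1a1, with a mean under the filter, read 19.9, 26.9, 14.4 and 30.1 in the same order, so it too was lowest in HSL-null on ND and highest in HSL-null on FD. Its FD to ND ratio was 1.06 in HSL-null liver and 0.43 in wild type, where the brighter probe set had -0.04.

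Col3a1, the chain of type III collagen, read 46.5 (ND) and 35.8 (FD) in wild-type liver and 37.3 (ND) and 60.8 (FD) in HSL-null liver. HSL-null on FD was again the highest pool. On FD the HSL-null pool was 1.70-fold over the wild-type pool, a log2 ratio of 0.76, and on ND the ratio was -0.32. The second probe set of Col3a1 read 13.1, 2.1, 8.1 and 13.8, with wild type on FD under the floor, and the third lay under the floor on 3 arrays and just above it, at 6.3, in HSL-null on FD. The difference between the genotype ratio on FD and that on ND was 1.08 for the brightest probe set.

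Col1a2, the partner chain of type I collagen, spread less. Its brightest probe set read 130.9, 134.3, 112.7 and 139.9 on wild type ND, wild type FD, HSL-null ND and HSL-null FD. That probe set carries a suffix for shared or less specific probes. Its other probe set read 7.3, 21.9, 12.6 and 31.6, close to the floor in wild type on ND. The order of the pools differed between them, although HSL-null on FD was highest in both. Their genotype ratios on ND had opposite signs, -0.22 in the brightest probe set and 0.79 in the dimmer one. Col5a1, a chain of type V collagen that starts fibril assembly, read 73.0 (ND) and 62.0 (FD) in wild-type liver and 49.9 (ND) and 62.7 (FD) in HSL-null liver. Its lowest pool was HSL-null on ND, with a log2 ratio to wild type of -0.55, while both FD pools read alike.

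In their brightest probe sets all 4 kept fibril-forming collagens were lower in HSL-null than in wild type on ND, with a median of -0.40. They remained so in direction with quantile normalization, with median scaling and with cyclic loess. On FD their median ratio was 0.28, with 4 of 4 above 0 as deposited and 2 of 4 above 0 under each of those 3 scalings, where Col1a2 and Col5a1 turned below 0. Within HSL-null liver all 4 were higher on FD than on ND, with a median of 0.52, also under the 3 other scalings. In wild type the median was -0.14 as deposited, with 3 of 4 genes lower, and 2 of 4 were lower under each other scaling. Of all kept genes 47.3% were higher in HSL-null on ND and 58.3% on FD. By diet 44.0% of all kept genes were higher on FD in wild type and 57.0% in HSL-null. Of the other fibril-forming collagens on the array, Col5a2 read 21.9, 17.3, 19.4 and 11.2 and was not kept. Col2a1, Col11a1 and Col11a2 lay at or under the floor on 2, 3 and 4 arrays.

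**Figure D2:**
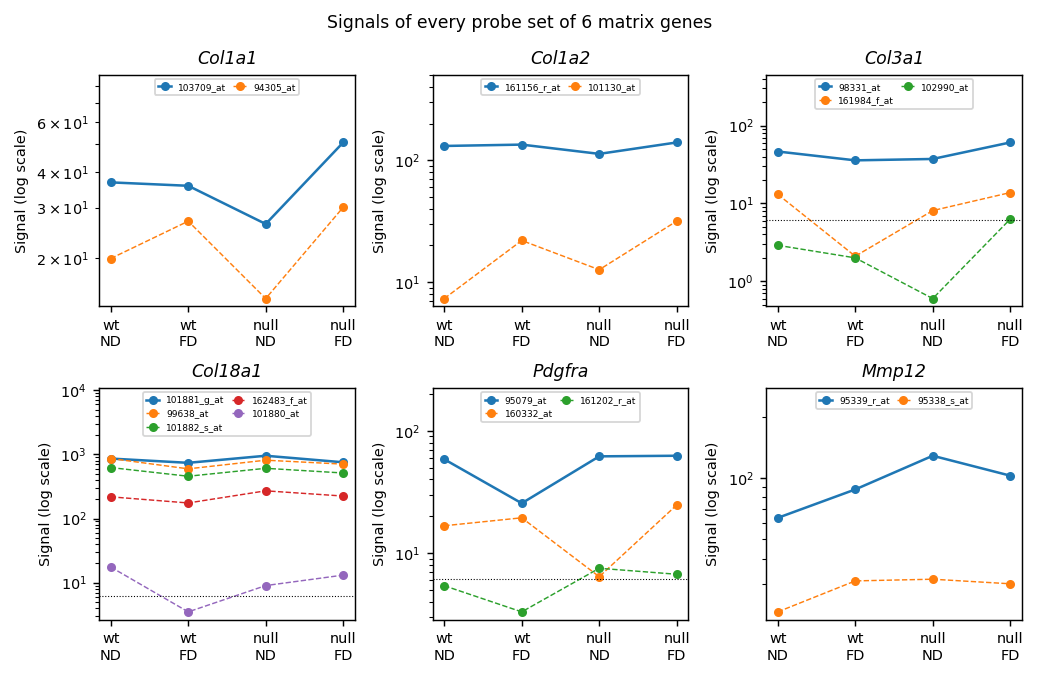
Signals of every probe set of Col1a1, Col1a2, Col3a1, Col18a1, Pdgfra and Mmp12 on the 4 arrays (log axis, arbitrary units), with the probe set that represents the gene as a solid line and the floor of 6.1 dotted where it falls in range. Col1a1 and Col3a1 are highest in HSL-null on FD in every probe set shown, while the Pdgfra probe sets place the pools in different orders.

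The type IV collagen network of basement membranes is built from chains encoded in head-to-head gene pairs. Col4a1 and Col4a2 share such a start region, and their RefSeq promoter windows are shown because these genes can be set side by side as neighbours. Each window holds 300 bases, from 250 before the annotated start to 50 after it, in GRCm38.p6. The window of Col4a1 is chr8:11312777-11313076 on the minus strand and that of Col4a2 is chr8:11312555-11312854 on the plus strand. They overlap by 78 bases, printed in capitals, and the annotated starts lie 21 bases apart.
Col4a1: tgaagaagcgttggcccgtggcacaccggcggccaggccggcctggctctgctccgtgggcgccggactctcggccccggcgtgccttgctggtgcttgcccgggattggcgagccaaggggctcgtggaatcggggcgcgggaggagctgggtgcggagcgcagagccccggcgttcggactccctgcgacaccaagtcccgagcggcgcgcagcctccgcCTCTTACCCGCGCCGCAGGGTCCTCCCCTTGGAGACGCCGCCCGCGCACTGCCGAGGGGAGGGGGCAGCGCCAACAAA
Col4a2: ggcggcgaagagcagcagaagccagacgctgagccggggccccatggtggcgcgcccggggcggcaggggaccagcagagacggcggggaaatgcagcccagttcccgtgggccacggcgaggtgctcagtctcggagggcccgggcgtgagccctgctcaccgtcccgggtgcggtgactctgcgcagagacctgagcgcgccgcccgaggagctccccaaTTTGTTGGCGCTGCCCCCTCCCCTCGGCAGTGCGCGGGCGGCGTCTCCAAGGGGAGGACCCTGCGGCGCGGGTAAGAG
The stretch in capitals is the same DNA read from opposite strands.

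Col4a1 read 97.6 (ND) and 74.3 (FD) in wild-type liver and 91.5 (ND) and 98.6 (FD) in HSL-null liver. Wild type on FD was the low pool and the other 3 lay close together. Its log2 genotype ratio, HSL-null over wild type, was -0.09 on ND and 0.41 on FD. Col4a2 read 88.9, 77.8, 74.0 and 81.3 in the same order, and its genotype ratio was -0.26 on ND and 0.06 on FD. The 2 neighbours thus had different low pools, wild type on FD for Col4a1 and HSL-null on ND for Col4a2, and all these ratios except that of Col4a1 on FD lay within the probe-set SD of 0.298. Under median scaling the ND ratio of Col4a1 was 0.04, and under all 3 other scalings the FD ratio of Col4a2 was below 0. Col4a3, Col4a4 and Col4a5, chains of specialised basement membranes, lay at or under the floor on at least 3 arrays.

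The 3 chains of collagen VI, which links cells to the surrounding fibrils, were all kept. Col6a1 read 64.5, 54.3, 54.2 and 72.1 on wild type ND, wild type FD, HSL-null ND and HSL-null FD. Col6a2 read 30.5, 29.5, 25.4 and 34.6, and Col6a3 read 39.0, 23.7, 32.4 and 33.3. Col6a1 and Col6a2 had the same order of pools, highest in HSL-null on FD and lowest in HSL-null on ND, while Col6a3 was lowest in wild type on FD. The genotype ratios on FD were 0.41, 0.23 and 0.49 for Col6a1, Col6a2 and Col6a3, and all 3 stayed above 0 under the 3 other scalings. On ND they were -0.25, -0.26 and -0.27, and stayed below 0 under those scalings. In wild type Col6a3 was 1.65-fold lower on FD than on ND.

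Set together, the 9 kept chains of the fibril-forming, type IV and type VI collagens, a grouping chosen after their values were seen, had a median genotype ratio of -0.26 on ND and 0.41 on FD. On ND, 9 of 9 were lower as deposited and under quantile normalization and cyclic loess, and 8 of 9 under median scaling. On FD, 9 of 9 were higher as deposited and 6 of 9 under each other scaling, the exceptions being Col1a2, Col4a2 and Col5a1. The FD ratio was larger than the ND ratio in 9 of 9 as deposited, under quantile normalization and under cyclic loess, and in 8 of 9 under median scaling, where Col1a2 was the exception. These counts use the brightest probe sets. The dimmer Col1a2 probe set was higher in HSL-null on ND, at 0.79, and its FD ratio was the smaller one, at 0.53. Over all kept genes the FD ratio was the larger one in 58.2%, and 47.3% were higher in HSL-null on ND and 58.3% on FD.

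The remaining collagens took other courses. Col14a1, a collagen that sits on the surface of type I fibrils, read 68.7 (ND) and 45.2 (FD) in wild-type liver and 104.4 (ND) and 88.2 (FD) in HSL-null liver. Both HSL-null pools lay above both wild-type pools. The log2 genotype ratio, HSL-null over wild type, was 0.60 on ND and 0.96 on FD, and it stayed above 0 under each other scaling. FD was lower than ND in either genotype, by 0.60 in wild type and 0.24 in HSL-null on the log2 scale. Col13a1, a transmembrane collagen, was higher in HSL-null by smaller ratios, 0.25 on ND and 0.49 on FD, at signals of 21.7 to 32.5 that lie near the filter. That probe set carries a suffix for sequence shared within a gene family. The other Col13a1 probe set, under the filter, had the opposite sign on ND, at -0.555, and 1.2 on FD.

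Col15a1 and Col18a1 are multiplexins, collagens of the zone between basement membrane and stroma. Col15a1 read 26.9, 40.5, 21.5 and 26.8, so wild type on FD was the high pool, and HSL-null was 1.51-fold lower than wild type on FD. Col9a2, a chain best known from cartilage, had the same high pool at 32.3, 53.0, 37.3 and 32.0. Both genes therefore ran opposite to Col1a1 and Col3a1 in the FD comparison, with log2 ratios of -0.60 and -0.73. Col18a1, the source of the fragment endostatin, read 860.8, 738.7, 952.4 and 753.1. Of its 5 probe sets, 4 passed the filter, and in those 4 FD was lower than ND by 0.22 to 0.53 in wild type and by 0.20 to 0.34 in HSL-null on the log2 scale. Their genotype ratios on ND ran from -0.09 to 0.31 and did not share a sign.

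Lamc1, the gamma 1 chain present in most laminins, was the single laminin kept. It read 56.3 (ND) and 70.1 (FD) in wild-type liver and 32.7 (ND) and 42.2 (FD) in HSL-null liver. Both HSL-null pools lay below both wild-type pools, at -0.78 (ND) and -0.73 (FD) on the log2 scale, the lowest of all kept matrix genes in each comparison. The probe set carries a suffix for sequence shared within a gene family, and the other Lamc1 probe set read 1.5 to 3.5, under the floor on all 4 arrays, so the ratio rests on 1 probe set. Lama4 and Lamb1 read 23.0 to 28.5 and 21.4 to 25.1 in their brightest probe sets, just under the filter. Lama5 read 19.6, 25.5, 5.0 and 23.0, so HSL-null on ND lay under the floor.

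Mmp12, the macrophage metalloelastase, was the 1 of the 2 kept metalloproteinases with a 2-fold difference in a genotype or diet comparison. Its brightest probe set read 63.5 (ND) and 87.6 (FD) in wild-type liver and 128.3 (ND) and 102.4 (FD) in HSL-null liver. Wild type on ND was the low pool and HSL-null on ND the high one, a ratio of 2.02-fold. On FD the HSL-null pool was 1.17-fold over wild type. The suffix of this probe set is one for shared or less specific probes. The other Mmp12 probe set, also kept, read 21.9, 31.1, 31.7 and 30.1, with wild type on ND again lowest and the other 3 pools alike, and its ratio on ND was 0.53. Of 12 kept markers of Kupffer cells and macrophages, 4 were higher and 8 lower in HSL-null on ND (7 higher and 5 lower under median scaling). They summed to 4189.6 in wild type on ND and 3964.9 in HSL-null on ND. The part of macrophages in the Mmp12 ratio was not tested.

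Mmp14, a membrane-bound collagenase that activates other metalloproteinases, read 177.9 (ND) and 141.3 (FD) in wild-type liver and 198.3 (ND) and 223.6 (FD) in HSL-null liver. Both HSL-null pools were above both wild-type pools, and the log2 ratio was 0.16 on ND and 0.66 on FD. The gelatinases Mmp2 and Mmp9, also named in liver fibrosis, lay under the floor on all 4 arrays in each of their probe sets, as did the brightest probe sets of Mmp3, Mmp8, Mmp10 and Mmp24. Their levels could not be compared here. Mmp11 and Mmp17 were above the floor on all 4 arrays but under the filter, and Mmp11 read 19.2, 19.9, 8.4 and 18.6, 2-fold or more lower in HSL-null on ND than in each other pool. Mmp17 read 14.3, 8.2, 9.0 and 16.6, with a genotype ratio of 1.02 on FD.

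Among the inhibitors, Timp1, which rises in many models of liver injury, read 76.5 (ND) and 111.4 (FD) in wild-type liver and 79.5 (ND) and 101.0 (FD) in HSL-null liver. Its pools separated by diet: both FD pools were above both ND pools, with log2 ratios of 0.54 in wild type and 0.35 in HSL-null. The genotype ratios of Timp1 were 0.06 on ND and -0.14 on FD. Timp2, the inhibitor that also takes part in activating Mmp2, read 38.2, 22.2, 25.3 and 31.8, highest in wild type on ND and lowest in wild type on FD. Its FD to ND ratio was -0.78 in wild type and 0.33 in HSL-null. Timp3, which is bound to the matrix, had the narrowest range of the kept genes, at 81.6, 89.8, 78.1 and 89.6, or 1.15-fold from lowest to highest.

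Fn1, fibronectin, which hepatocytes also secrete into plasma, read 389.4, 313.8, 357.4 and 322.2, with both FD pools below both ND pools and log2 ratios of -0.31 in wild type and -0.15 in HSL-null. Sparc, a collagen-binding matricellular protein, read 95.3 (ND) and 123.0 (FD) in wild-type liver and 124.4 (ND) and 93.3 (FD) in HSL-null liver. Its genotype ratio was 0.38 on ND and -0.40 on FD, the reverse of the signs of Col1a1 and Col3a1, and it kept these signs under every alternative tried. Lum, lumican, a small proteoglycan that binds collagen fibrils, read 63.0, 58.8, 67.2 and 83.7 and was highest in HSL-null on FD, with a genotype ratio of 0.51 there.

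Pdgfra, a receptor for platelet-derived growth factors carried by stellate and other mesenchymal cells, had the largest FD ratio of genotype among the kept matrix genes. It read 58.4 (ND) and 25.5 (FD) in wild-type liver and 61.7 (ND) and 62.4 (FD) in HSL-null liver. Wild type on FD stood apart and the other 3 pools read alike. HSL-null was 2.45-fold over wild type on FD, and FD was 2.29-fold under ND in wild type, so both differences rest on the same array. A dimmer probe set of Pdgfra read 16.7, 19.4, 6.4 and 24.7, with HSL-null on ND and not wild type on FD as the low pool, and its FD ratio of genotype was 0.35. The third probe set read 3.3 to 7.5, around the floor.

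Acta2, smooth muscle alpha actin, found in vascular smooth muscle and in activated stellate cells, read 37.6, 28.2, 36.3 and 46.3 on wild type ND, wild type FD, HSL-null ND and HSL-null FD. It was lowest in wild type on FD and highest in HSL-null on FD, a log2 ratio of 0.72, and the ratio on ND was -0.05, which turned above 0 under the 3 other scalings. Des, desmin, an intermediate filament of stellate and muscle cells, read 25.7, 24.7, 20.5 and 25.2 and was not kept. Pdgfrb, the other receptor of the family and a marker of stellate cells and pericytes, read 11.9, 8.8, 10.3 and 9.0, also under the filter. In whole liver, fewer cells of a type and less RNA per cell cannot be told apart.

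The RefSeq promoter windows of Pdgfra, Mmp12, Col3a1 and Timp2 are shown because these 4 kept genes were 2-fold or more different in a genotype or diet comparison or in the difference of the genotype ratios. Capitals mark every match, on either strand, to TATAA, to CCAAT or to the AP-1 motif TGANTCA. The windows are chr5:75152001-75152300 on the plus strand for Pdgfra, chr9:7347124-7347423 on the plus strand for Mmp12, which is 1 of its 2 windows, chr1:45311288-45311587 on the plus strand for Col3a1 and chr11:118355362-118355661 on the minus strand for Timp2.
Pdgfra: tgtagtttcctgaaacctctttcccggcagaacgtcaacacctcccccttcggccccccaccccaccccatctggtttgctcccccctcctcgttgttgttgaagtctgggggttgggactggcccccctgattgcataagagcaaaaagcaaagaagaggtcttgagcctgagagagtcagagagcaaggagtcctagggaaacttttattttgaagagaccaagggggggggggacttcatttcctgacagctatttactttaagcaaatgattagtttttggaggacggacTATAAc
Mmp12: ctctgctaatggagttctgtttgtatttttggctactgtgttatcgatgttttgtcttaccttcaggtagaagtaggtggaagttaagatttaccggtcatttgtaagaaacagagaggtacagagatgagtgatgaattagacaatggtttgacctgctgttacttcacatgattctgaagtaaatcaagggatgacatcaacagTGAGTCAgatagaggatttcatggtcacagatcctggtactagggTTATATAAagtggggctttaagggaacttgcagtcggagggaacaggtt
Col3a1: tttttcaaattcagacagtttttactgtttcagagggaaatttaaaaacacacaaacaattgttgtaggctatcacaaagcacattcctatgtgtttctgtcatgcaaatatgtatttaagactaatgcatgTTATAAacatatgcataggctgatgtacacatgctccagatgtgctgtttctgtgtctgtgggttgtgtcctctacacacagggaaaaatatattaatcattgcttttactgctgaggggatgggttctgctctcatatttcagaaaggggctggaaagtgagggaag
Timp2: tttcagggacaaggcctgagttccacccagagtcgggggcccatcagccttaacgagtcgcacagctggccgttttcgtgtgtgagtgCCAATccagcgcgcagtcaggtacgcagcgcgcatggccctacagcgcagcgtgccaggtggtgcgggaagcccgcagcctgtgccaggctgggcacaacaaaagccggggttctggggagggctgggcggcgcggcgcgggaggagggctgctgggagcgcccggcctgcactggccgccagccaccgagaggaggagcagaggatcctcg
A window was given for 20 of the 25 kept genes, 23 windows in all. TATAA was found in 6 of the 23 (26.1%), against 24.9% of 32851 mouse windows of that length. CCAAT was found in 7 (30.4%, against 37.4%), those of Col4a1, Col4a2 and Timp2 among them. The AP-1 motif was found in 2 (8.7%, against 7.81%), those of Mmp12 and Col6a1. These are counts of letters in a window and say nothing of binding.

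Compared by genotype on ND, 1 of 25 matrix genes was 2-fold or more higher in HSL-null, Mmp12, where 0.497% of all kept genes were. Mmp12 lay just past the 2-fold threshold there, and the count was 0 with a pseudocount in place of the floor, with the filter at the 75th percentile, with the probe sets averaged and without suffix probe sets. None was 2-fold lower, against 1.08% of all genes. At 1.5-fold, Col14a1 and Mmp12 were higher (background 2.36%) and Lamc1 and Timp2 were lower (background 4.37%). The median over the 25 genes was -0.09 and that over all kept genes was -0.02. Above 0 lay 10 of the 25 (40.0%), against 47.3% of all genes. Under median scaling 14 of the 25 (56.0%) did, against 66.4% of all genes.

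On FD, 1 of 25 was 2-fold or more higher in HSL-null, Pdgfra, against 1.86% of all kept genes, and none was 2-fold lower, against 0.953%. At 1.5-fold the higher genes were Acta2, Col14a1, Col3a1, Mmp14 and Pdgfra (20.0% of the members, background 9.17%), and the lower genes were Col15a1, Col9a2 and Lamc1 (background 3.77%). The median was 0.23 against 0.07 over all genes. As deposited 19 of 25 lay above 0, against 58.3% of all genes. Counted from the median of all genes instead, 14 of 25 lay above it, and 16, 14 and 16 of 25 lay above 0 with quantile normalization, with median scaling and with cyclic loess, against 50.9%, 38.9% and 50.5% of all genes.

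**Figure D3:**
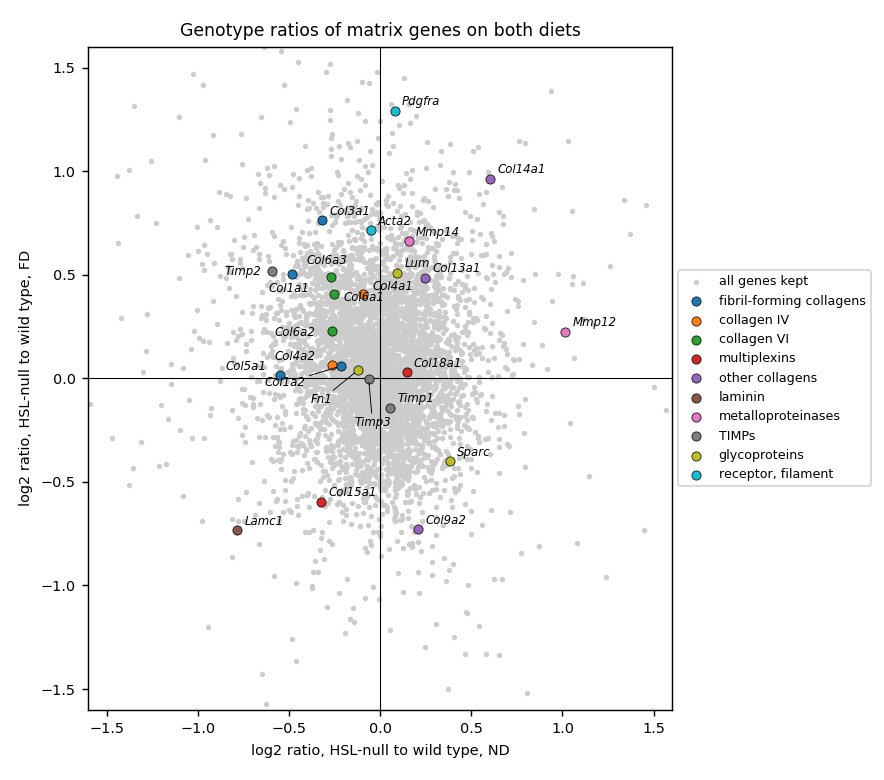
Log2 genotype ratio (HSL-null over wild type) on ND (horizontal) and on FD (vertical) for the 25 kept matrix genes, coloured by role, over all 4829 kept genes in grey, of which 45 lie outside the axes. The 9 fibril-forming, type IV and type VI chains lie left of 0 (Col4a1 turns right of it under median scaling) and above 0 (Col1a2, Col4a2 and Col5a1 turn below it under the 3 other scalings).

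The ND and FD genotype ratios use different arrays and can be set against each other. As deposited, 12 of 25 genes (48.0%) were lower in HSL-null on ND and higher on FD, where 32.14% of all kept genes were. The reverse held for 3 genes against 21.12% of all genes. Several of the 12 left the pattern under another scaling. Col1a2, Col4a2 and Col5a1 turned below 0 on FD, and Acta2 above 0 on ND, under the 3 other scalings. Col4a1 and Fn1 turned above 0 on ND under median scaling. The difference between the FD and the ND ratio was 2-fold or more above 0 for Col3a1, Pdgfra and Timp2, at 1.08, 1.21 and 1.11, against a background of 4.93%. No gene was 2-fold or more below 0, against 1.39%. This split depends on the scaling: median scaling gave none above and 3 below (Col9a2, Mmp12 and Sparc), quantile normalization gave Pdgfra above and Col9a2 below, and cyclic loess gave Col9a2 below. The SD between probe sets for such a difference was 0.42.

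Median scaling moved the median ratio of all kept genes to 0.11 on ND, -0.10 on FD, 0.10 for diet in wild type, -0.12 for diet in HSL-null and -0.21 for the difference of the genotype ratios. Taken relative to the median of all genes, the matrix genes' median varied less with the scaling. It lay 0.064 to 0.075 below that median on ND and 0.121 to 0.164 above it on FD. Under the 3 other scalings, ratios of genotype or diet of over 0.14 in size did not change sign in any of the 25 genes.

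By diet in wild-type liver, 1 of 25 was 2-fold or more lower on FD, Pdgfra, against 2.36% of all kept genes, and none was 2-fold higher, against 0.787%. At 1.5-fold, Col14a1, Col6a3, Pdgfra and Timp2 were lower (background 9.48%) and Col15a1 and Col9a2 were higher (background 4.56%). The median was -0.22 against -0.05 over all genes. Above 0 lay 8 of 25, against 44.0% of all genes, and 11, 11 and 10 of 25 with quantile normalization, with median scaling and with cyclic loess, against 50.9%, 60.1% and 50.2% of all genes.

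By diet in HSL-null liver none of the 25 was 2-fold different, against 1.45% of all kept genes. At 1.5-fold Col1a1 and Col3a1 were higher on FD (background 4.14%) and none was lower (background 2.30%). The median was 0.20 against 0.04 over all genes. Above 0 lay 18 of 25, against 57.0% of all genes, and 16, 14 and 16 with quantile normalization, with median scaling and with cyclic loess, against 50.6%, 32.3% and 50.4% of all genes. As deposited, 13 of the 25 genes (52.0%) were lower on FD in wild type and higher on FD in HSL-null, where 33.2% of all kept genes were. Several of the 13 left this pattern under another scaling. In wild type Col1a1 and Col6a2 turned above 0 under the 3 other scalings, and Lum under 2 of them. In HSL-null Col6a3 and Pdgfra turned below 0 under all 3, and Col4a1 and Col4a2 under median scaling. The genotype and the diet comparisons share arrays, so their values are given side by side and are not separate evidence.

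**Figure D4:**
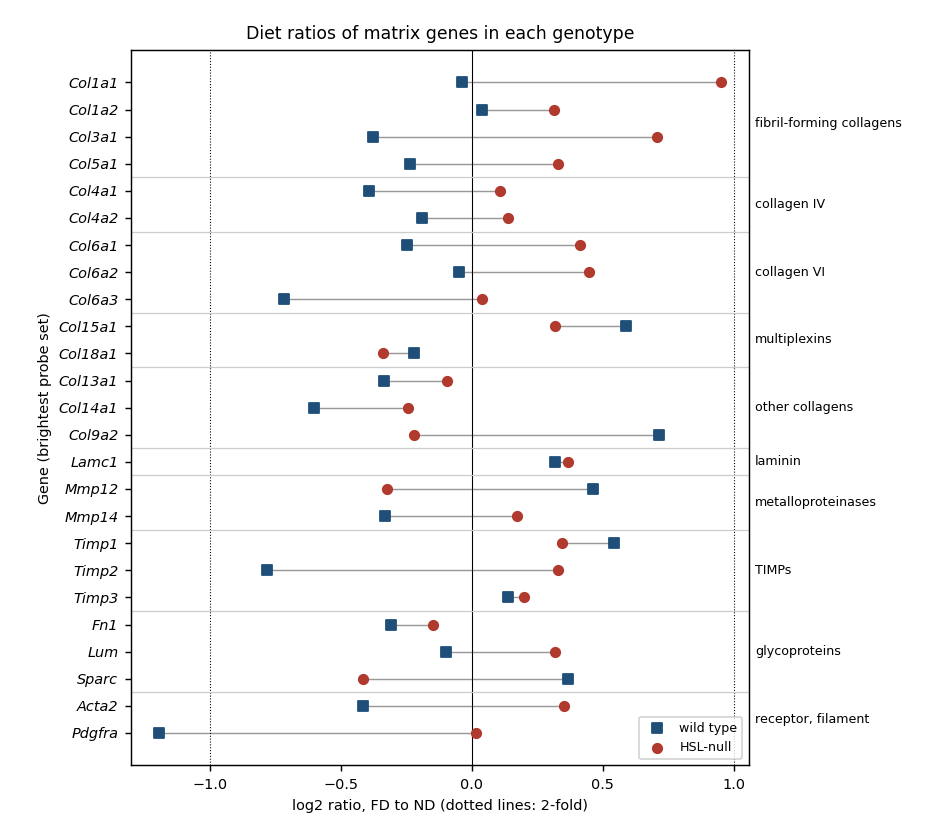
Log2 ratio of FD to ND for each kept matrix gene in wild-type (squares) and HSL-null liver (circles), ordered by role, with dotted lines at 2-fold. Pdgfra in wild type, at -1.20, is the point beyond 2-fold, while Col1a1 reaches 0.95 in HSL-null.

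Genes that process and cross-link collagen took several courses. Of 16 on the array, 10 were kept, and their median ratios were -0.17 and -0.04 for genotype on ND and FD and -0.02 and -0.01 for diet in wild type and HSL-null, of which that for diet in wild type turned above 0 under the 3 other scalings. Pcolce, which enhances the cleavage of procollagen, read 76.8, 50.4, 61.8 and 90.5, lowest in wild type on FD and highest in HSL-null on FD like Col3a1. P4hb, a subunit of prolyl hydroxylase, was also lowest in wild type on FD, at 412.6, 260.8, 301.4 and 379.6. Serpinh1, the collagen chaperone HSP47, read 68.0, 37.0, 43.5 and 37.6, high in wild type on ND alone. Lox, a collagen cross-linking enzyme, lay under the floor on all 4 arrays.

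Of 30 other matrix genes on the array, 12 were kept, and 11 of the 12 were lower on FD in wild type, with a median of -0.27 (10 or 11 of 12 under the 3 other scalings). On FD 9 of 12 were higher in HSL-null, with a median of 0.23, and 6 to 8 of 12 under the other scalings. Of all kept genes 44.0% were higher on FD in wild type. By genotype on FD, 58.3% of all kept genes were higher in HSL-null (38.9% to 50.9% under the other scalings). Bgn, biglycan, a small proteoglycan, read 598.1 (ND) and 296.6 (FD) in wild-type liver and 437.9 (ND) and 529.3 (FD) in HSL-null liver. It was 2-fold lower on FD in wild type, at -1.01, the 1 gene of this list to pass that threshold in a genotype or diet comparison. Postn, periostin, a matricellular protein of fibrotic tissue, read 51.7, 32.5, 45.8 and 54.9, and Tgfbi, a collagen-binding protein induced by TGF-beta, read 138.1, 91.1, 127.6 and 140.8. Bgn, Postn and Tgfbi had wild type on FD as their low pool, as did Pdgfra, Col4a1 and Col6a3.

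Matrix receptors were kept for 7 of 17 genes, with median ratios of -0.15 and 0.11 for genotype on ND and FD and -0.19 and 0.08 for diet in wild type and HSL-null. Median scaling turned the medians for genotype on FD and diet in HSL-null to -0.06 and -0.08. Itgav, an integrin chain that binds fibronectin and activates latent TGF-beta, read 302.8, 234.1, 272.1 and 332.2. Itgb7, an integrin chain of leukocytes, read 77.2, 30.7, 43.4 and 41.6, and was 2-fold lower on FD in wild type, at -1.33. Of 29 genes of profibrotic signalling, 10 were kept and none was 2-fold different in a genotype or diet comparison. Their medians ran from -0.09 to 0.08, and the signs of all 4 turned under median scaling. Those for genotype on FD and diet in wild type also turned under quantile normalization and cyclic loess. That for diet in HSL-null also turned under cyclic loess. Ccn2, a TGF-beta target also known as connective tissue growth factor, read 31.8, 31.0, 29.8 and 23.4 and was lowest in HSL-null on FD. Tgfb2 and Tgfbr2 lay under the floor on all 4 arrays.

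Cell type markers moved between the pools as well. The 5 kept markers of stellate and other mesenchymal cells that are not among the matrix genes had sums of 363.5, 276.8, 294.2 and 359.7 on wild type ND, wild type FD, HSL-null ND and HSL-null FD, and Cnn1, Gli1 and Ecm1 lay under the floor on all 4 arrays. Reln, reelin, made by stellate cells in liver and the brightest of the 5, read 198.9, 116.4, 150.4 and 181.6, lowest in wild type on FD. Tcf21, a stellate cell transcription factor, read 47.9, 45.6, 36.1 and 56.0, lowest in HSL-null on ND. Tagln read 43.1, 33.6, 30.5 and 34.4, also lowest in HSL-null on ND. The other markers ran otherwise. Actg2 read 34.3, 45.7, 38.6 and 57.9, lowest in wild type on ND, and Rgs5 read 39.3, 35.5, 38.6 and 29.8, lowest in HSL-null on FD. The list's median genotype ratio was -0.40 on ND (4 of 5 lower, 3 of 5 under the 3 other scalings) and 0.30 on FD (4 of 5 higher, 3 of 5 under the other scalings). Markers of Kupffer cells and macrophages were higher in HSL-null on FD in 12 of 12 kept genes, with a median of 0.34 (11 of 12 under quantile normalization and cyclic loess, 9 of 12 under median scaling). In wild type 11 of the 12 were lower on FD, as under the 3 other scalings, with a median of -0.50 (-0.36 under median scaling). The 12 genes summed to 4189.6, 2873.5, 3964.9 and 3684.7. Of all kept genes 47.3% were higher in HSL-null on ND and 58.3% on FD. By diet in wild type 44.0% of all kept genes were higher on FD. The part of cell makeup in the matrix gene differences was not tested.

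Lymphocyte markers were kept for 3 of 12 genes, and their pools ran in different orders. Ptprc, the pan-leukocyte antigen CD45, read 47.8, 13.7, 24.4 and 36.6, lowest in wild type on FD. Cd79b, of the B cell receptor, read 38.3, 20.6, 19.8 and 31.2, and Ms4a1, the B cell antigen CD20, read 54.2, 67.0, 55.0 and 47.5, highest in wild type on FD. By genotype 2 of these 3 were higher in HSL-null on FD and 2 were lower on ND, also under the 3 other scalings. Of all kept genes 58.3% were higher in HSL-null on FD and 47.3% on ND. The 11 kept endothelial markers had median ratios of -0.11 and 0.06 for genotype on ND and FD, and median scaling turned the signs of both, to 0.02 and -0.11. Hepatocyte markers summed to 28031.0, 20522.0, 24916.0 and 22312.9, with 11 of 12 lower on FD in wild type (10 or 11 under the 3 other scalings). Of all kept genes 44.0% were higher on FD in wild type. Exocrine pancreas markers stood out in wild type on ND: their 7 kept genes summed to 967.8 there and to 341.0, 330.5 and 383.8 in the other pools. Ctrb1, chymotrypsinogen B, read 286.3 (ND) and 74.1 (FD) in wild-type liver and 67.9 (ND) and 49.8 (FD) in HSL-null liver. Wild type on ND is the reference array of the ND genotype comparison and of the wild-type diet comparison, and the part of these transcripts in the lower matrix gene ratios there was not tested.

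**Figure D5:**
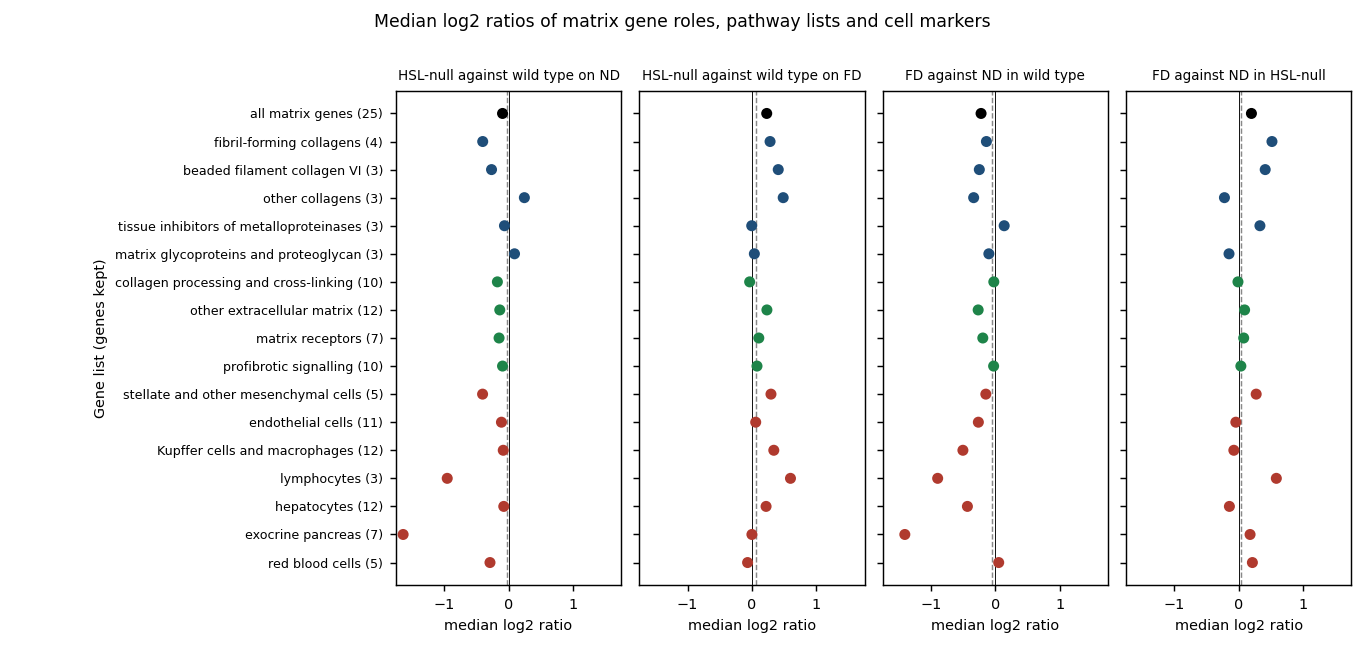
Median log2 ratio of all 25 kept matrix genes (black), of their roles (blue), of pathway lists (green) and of cell markers (red) in the 4 comparisons, with the number of kept genes in brackets and the median of all kept genes as a dashed line. The fibril-forming collagens lie at -0.40 on ND and 0.28 on FD by genotype (2 of those 4 genes turn below 0 on FD under the 3 other scalings), and the exocrine pancreas markers lie farthest left in both comparisons that use wild type on ND.

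The 38 matrix genes that were not kept include most of the laminin and metalloproteinase families. In their brightest probe set 12 lay at or under the floor on all 4 arrays, 9 on 1 to 3 arrays and 17 on none, and the highest mean signal among them was 25.38, that of Lama4, just under the filter. At the other side of it, the lowest mean among the kept genes was 28.0. A low signal on this array can come from a weak probe set as well as from little RNA, so it gives no statement that a gene was silent.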

How the data were processed

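Liver RNA from 4 pools of female mice was measured on 4 Affymetrix arrays, 1 per group. The authors deposited a table with a linear intensity for every probe set on each array. MAS5, which summarises the probes of a set, is named by the submitters' processing notes, and its version was not given in the sources used here. Run settings deposited by the authors, with no expression value, named 1 lot of chips, 1 day of scanning and 2 lots of solutions. Detection calls were not used here.

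Of 12488 probe sets, 66 are controls. In the platform annotation 10833 of the others had 1 gene, 396 several and 1193 none, and none of the last 2 kinds was named. All 63 member genes were found in the RefSeq table of GRCm38.p6, with 0 changed symbols, and promoter windows come from RefSeq in that build.

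Signals under the floor of 6.1, the 25th percentile, were set to the floor before log2 was taken. Probe sets with a mean of at least 26.94, the median of the means, were kept, and the brightest represents a gene. A ratio of 2-fold counts as a difference. With 1 array per group there is no test. Precision is limited by the number of arrays. The SD between the 2 brightest probe sets of a gene is the 1 error estimate. The script was tested on simulated data. Python 3.11.15 with pandas 2.3.3 and numpy 2.4.6, and R 4.3.3 with limma 3.58.1, were used.

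The member genes and the gene lists were chosen with earlier results of these data known. Named with values are members past 2-fold, the 5 highest and 5 lowest in each comparison, all kept fibril-forming and type IV collagens, laminins and TIMPs, and Fn1, Sparc, Lum, Acta2, Des, Pdgfra and Pdgfrb. From each other list up to 4 genes with the largest ratios could be named. Members not kept, Lox, Tgfb2 and Tgfbr2, and the markers at the floor were chosen after seeing their values.

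Alternatives tried were quantile normalization, median scaling, cyclic loess, 2 other floors, a pseudocount in place of the floor, 3 other filters, averaging the probe sets of a gene, no probe sets with a suffix for shared or less specific probes, and a 1.5-fold threshold.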

Additional observations from a re-analysis of the deposited data

Results flagged for a closer look

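In each of these genes the ratio in one group and that in the other had opposite signs, and each was larger in size than the SD of 0.298 between probe sets. Several were smaller than the SD of 0.36 found in the signal range of most of these genes. They are the genotype ratio of Col3a1 on ND and the diet ratios of Acta2, Timp2 and Mmp12 in HSL-null. None of the flagged ratios changed sign under the alternatives tried, but some fell under 0.298 in size in at least 1 of them. By genotype these were Col3a1 on ND, at -0.188, and Timp2 on FD, at 0.252. By diet they were Col3a1 (-0.236) and Acta2 (-0.272) in wild type, and Acta2 (0.195), Timp2 (0.173) and Mmp12 (-0.2) in HSL-null. With 1 array per group the differences were not tested. By genotype, HSL-null against wild type, Col1a1 was -0.48 on ND and 0.50 on FD. The dimmer Col1a1 probe set had -0.47 on ND and 0.16 on FD. Col3a1 was -0.32 on ND and 0.76 on FD. Timp2 was -0.59 on ND and 0.52 on FD. Sparc went the other way, at 0.38 on ND and -0.40 on FD.

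By diet, FD against ND, Acta2 was -0.42 in wild type and 0.35 in HSL-null. Col3a1 was -0.38 in wild type and 0.70 in HSL-null, and Timp2 was -0.78 in wild type and 0.33 in HSL-null. Mmp12 and Sparc ran opposite to them. Mmp12 was 0.46 in wild type and -0.33 in HSL-null, and Sparc was 0.37 in wild type and -0.42 in HSL-null. The other kept probe set of Mmp12 had 0.506 in wild type and -0.075 in HSL-null. Both sets of ratios come from the same 4 arrays, so a gene listed in each counts as 1 pattern.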

How the results depend on the processing

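No paired analysis was possible because each group has 1 array and the labels give no replicate numbers. Of 60 counts of members past the threshold 41 stayed within 1.5 times the reported count, and 33 of 55 medians moved by no more than 0.075 (0.106 for the difference of the genotype ratios). These counts join both directions and ignore which genes were called. The difference of the genotype ratios under median scaling, with 3 genes below in place of 3 above, therefore counts as unchanged. So does quantile normalization, with 1 above and 1 below. For the named genes 1244 of 1250 values moved by no more than 0.298 (0.42 for the difference of the genotype ratios), 6 moved by more and 0 called values changed sign. In the order genotype on ND, genotype on FD, diet in wild type, diet in HSL-null and the difference of the genotype ratios, the medians that moved were these. Under quantile normalization they were 0.132 (genotype on FD), -0.133 (diet in wild type) and 0.201 (difference), and under cyclic loess 0.124, -0.141 and 0.199 for the same 3. Under median scaling all 5 moved, to 0.037, 0.063, -0.079, 0.042 and 0.063. Without a filter all 5 moved, to 0.0, 0.0, 0.0, 0.027 and 0.069 over 63 genes, many of them at the floor. With the filter at the 75th percentile, which leaves 5 members, they were 0.146 (genotype on ND), 0.038 (genotype on FD), -0.15 (diet in HSL-null) and 0.162 (difference). Without suffix probe sets they were 0.408 (genotype on FD) and 0.494 (difference).

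The counts past 2-fold that moved were, for genotype on ND, from 1 to 0 with the pseudocount, the 75th percentile filter, the mean of probe sets and no suffix probe sets. All of these concern Mmp12. Without a filter the 5 counts were 5, 4, 6, 4 and 11, and with the 1.5-fold threshold they were 4, 8, 6, 2 and 10. With the 75th percentile filter, which does not keep Pdgfra, Col3a1 or Timp2, the counts for genotype on FD, diet in wild type and the difference were 0. The difference count was 1 with the pseudocount and under cyclic loess. Signals near the floor limit the fainter genes: 38 of 63 members gave no ratio that was used.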
